A study of Mus musculus with 8 samples.

Results

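The signal of 10 transcription factors of the myeloid and erythroid lineages was followed in splenic tumors and in the cell line that gave rise to them. They were Spi1, Cebpa, Cebpb, Cebpe, Gata1, Gata2, Gfi1, Irf8, Runx1 and Myb, taken as a list of names and not by a cutoff on their values. The list was chosen with earlier results of these data known, the rise of granule genes among them. A probe set counted where its platform symbol was, or included, one of these names, which gave 18 of the 22690 probe sets of the array. They covered 9 of the 10 genes, of 12393 genes with a probe set of their own in all, with 0 probe sets that joined several symbols, and Cebpe had none under that symbol and was not analysed here. The tumor groups were tumors 1, 2 and 3, each made of tumor cells taken from the spleen of 1 of 3 nude mice that had received the cells by intravenous injection. The parental group was FL5.12, an interleukin-3-dependent mouse line called pro-B by the labels, carrying stable Bfl-1DC and p53DD transgenes and kept on supernatant of WEHI-3B cells for interleukin-3. All groups carried both transgenes, the parental cells included, and the mice were athymic but keep other blood lineages of their own. RNA of each of the 4 sources was read on 2 Affymetrix mouse arrays. The labels do not say whether the 2 arrays of a source came from separate extractions or cultures, so p-values measure the spread among these samples, which may be technical between duplicates.

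These factors set blood cell identity largely through their dose and their company. PU.1, the product of Spi1, drives myeloid and B cell fates and is held in check by GATA1, which drives erythroid, megakaryocyte, eosinophil and mast cell genes, and each protein can block the activity of the other. GATA2 acts in stem and progenitor cells and in mast cells, C/EBP factors open and then complete the granulocyte programme, GFI1 and IRF8 bias progenitors toward neutrophils and toward monocytes, and RUNX1 and MYB maintain progenitors and help to switch on granule genes.

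The mean tumor signal of Spi1 was 2.39 times, and that of Gata2 1.94 times, the parental signal, and Gata1 fell in tumor 1 alone. None of the 14 member probe sets that could be tested passed limma's test of all tumors against parental cells after adjustment, and 4 had an unadjusted p under 0.05. The probe sets of Cebpb, Runx1 and Myb had changes of 0.09 to 0.52 on the scale of log2(signal + 16), none of which passed. Cebpa, Gfi1 and Irf8 were near the bottom of the signal range on nearly all arrays, tumor and parental, while Mpo and Epx rose by 6.19 and 7.05 on that scale.

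The sequence around the start of Gata1 and of the granule genes Mpo, Elane, Prtn3 and Epx is shown because PU.1 is known to bind a purine-rich core, GAGGAA, and to drive primary granule genes, and because Gata1 was the factor that differed among the tumors. Each runs 5′ to 3′ on the strand of the gene, from 250 bases before to 50 after the annotated start, and is taken from RefSeq on the build GRCm38.p6. Capitals mark GAGGAA where it lies on the printed strand.
Gata1, chrX:7967861-7968160, minus strand: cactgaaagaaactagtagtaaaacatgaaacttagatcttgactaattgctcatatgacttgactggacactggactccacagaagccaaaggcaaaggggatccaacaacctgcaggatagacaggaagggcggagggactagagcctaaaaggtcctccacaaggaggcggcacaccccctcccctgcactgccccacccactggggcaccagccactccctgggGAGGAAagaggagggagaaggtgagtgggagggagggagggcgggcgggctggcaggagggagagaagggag
Mpo, chr11:87793534-87793833, plus strand: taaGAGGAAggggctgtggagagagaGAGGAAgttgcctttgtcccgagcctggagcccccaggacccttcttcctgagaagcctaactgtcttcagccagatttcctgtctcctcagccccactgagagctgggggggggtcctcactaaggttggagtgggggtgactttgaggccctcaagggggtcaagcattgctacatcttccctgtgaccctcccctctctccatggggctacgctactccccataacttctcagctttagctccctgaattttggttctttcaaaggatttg
Elane, chr10:79886062-79886361, plus strand: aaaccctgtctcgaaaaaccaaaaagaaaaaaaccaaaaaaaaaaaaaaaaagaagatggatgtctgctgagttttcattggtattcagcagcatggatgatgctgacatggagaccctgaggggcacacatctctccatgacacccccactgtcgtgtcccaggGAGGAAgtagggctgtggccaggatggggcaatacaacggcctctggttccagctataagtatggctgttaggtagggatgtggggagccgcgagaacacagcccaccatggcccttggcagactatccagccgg
Prtn3, chr10:79879417-79879716, plus strand: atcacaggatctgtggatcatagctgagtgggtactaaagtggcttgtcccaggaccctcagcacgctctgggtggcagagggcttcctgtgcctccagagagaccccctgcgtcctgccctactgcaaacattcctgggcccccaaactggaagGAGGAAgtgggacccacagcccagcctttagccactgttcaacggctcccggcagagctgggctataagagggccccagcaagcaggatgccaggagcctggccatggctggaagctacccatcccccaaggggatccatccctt
Epx, chr11:87875487-87875786, minus strand: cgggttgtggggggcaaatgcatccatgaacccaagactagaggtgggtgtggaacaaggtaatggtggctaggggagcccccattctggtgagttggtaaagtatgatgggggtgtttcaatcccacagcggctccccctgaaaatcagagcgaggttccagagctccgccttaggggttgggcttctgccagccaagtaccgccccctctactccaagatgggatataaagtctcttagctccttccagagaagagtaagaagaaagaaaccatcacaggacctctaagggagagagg

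In these windows the core began at position -22 from the start of Gata1, at -247 and -224 for Mpo, at -85 for Elane and at -95 for Prtn3, and Epx held none on either strand. The promoter of Ctsg, another granule gene, held it at -216. Of the 10 members 8 had a promoter in the table, Spi1 and Cebpe not among them. GAGGAA was found in 1 other of these, on the reverse strand of the second Runx1 promoter at -46, and in neither of the Gata2 promoters. On both strands GAGGAA was found in 28.3% of 32851 mouse promoters of the same length, so its presence is common. The GATA word (GATA with A or T before it and A or G after it), found in 29.8% of promoters, was in none of the member or granule gene windows. The C/EBP word TTGCNNAA, found in 10.8%, was in 1, a Gfi1 promoter at -143. The MYB word AACNG was found in 80.3% of promoters and does not separate any of these genes from the rest. Each word was searched on its own, and the C/EBP match of Gfi1 shares bases with an AACNG match that begins at -137.

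The signal of a probe set is the linear MAS5 intensity as deposited, with arrays scaled to a trimmed mean of 150.06. Probe sets differ in their affinity, so levels are compared between sources and never between genes. A probe set was tested where at least 2 of the 8 arrays had it above their 40th percentile of signal, which lay between 15.6 and 20.66. That left 14893 probe sets, and 14 of the 18 member probe sets, from 6 genes. A gene dim in parental cells could pass only through tumor arrays where it was high, which favours rises among the genes tested. Tumors were compared with parental cells with limma, the mean of the 2 arrays of a tumor as 1 value, and p-values were adjusted over all probe sets tested with a threshold of 0.05. By that rule 104 probe sets were called (0.698% of those tested), of which 74 were higher (0.497%) and 30 lower (0.201%) in tumors, and 0 of the 14 member probe sets were. By unadjusted p under 0.05, 4 of 14 passed, all higher in tumors, against 15.5% of all probe sets in either direction and 8.78% higher. The 14 changes had a median of 0.39 and ran from -0.82 to 1.09, against a median of 0.008 over all probe sets tested, and 13 lay above 0 (51.1% of all). Several of the 14 read the same transcript, 5 for Runx1, 3 for Myb and 2 each for Gata2 and Cebpb, so they are not separate genes.

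**Figure D1:**
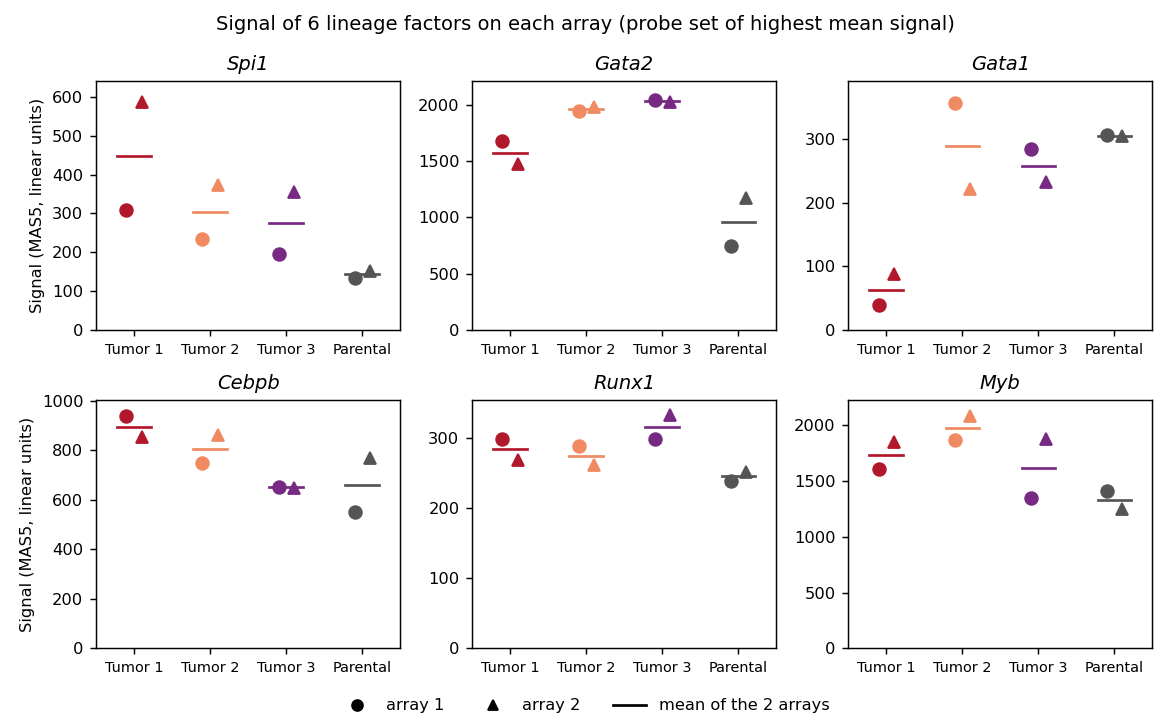
Linear MAS5 signal (vertical axes, each starting at 0) of the probe set of highest mean signal for 6 lineage factors, with tumors 1, 2 and 3 left of parental cells. Circles are first arrays, triangles second arrays and lines the mean of the 2; all tumor arrays lie above both parental arrays for Spi1, Gata2 and Runx1, and Gata1 is low in tumor 1, at 38.6 and 87.2.

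Spi1 (chromosome 2) encodes PU.1, the ETS factor of myeloid and B cell development. Its signal was 308 and 588 (tumor 1), 234 and 373 (tumor 2) and 196 and 355 (tumor 3), against 134 and 152 in parental cells. All 6 tumor arrays were above both parental arrays, and in each tumor the second array was the higher. The tumors averaged 342 ± 92.4 (SD, n = 3 tumors) and the parental cells 143 ± 12.7 (SD, n = 2 arrays), a ratio of 2.39. The change was 1.09 ± 0.23 (SE) on the scale of log2(signal + 16) and did not pass over all probe sets (limma adjusted p = 0.116, unadjusted p = 0.00223). Without any 1 tumor or parental array the change stayed between 0.90 and 1.23. By tumor the changes were 1.48, 0.98 and 0.82 in tumors 1, 2 and 3, each with an SE of 0.38 from the spread of duplicate arrays (adjusted p = 0.0923, 0.35 and 0.38). With the array number as a block the adjusted p was 0.00633, 0.0391 and 0.048 in the same order and 0.0088 for the mean of the tumors, so each passed. The spread in these block fits is that of duplicate arrays and not of mice. They called 13.8%, 5.46% and 9.13% of all probe sets in tumors 1, 2 and 3, and 13.1% for the mean of the tumors. In descending order of signal the sources were tumor 1, tumor 2, tumor 3 and parental cells, and the 3 tumors did not differ beyond the spread of their duplicates (F test over tumors, adjusted p = 0.761).

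Spi1 also differed between duplicate arrays. Second arrays exceeded first arrays by 0.78 on the log2(signal + 16) scale in tumors, against 0.16 in parental cells, and the change was 0.78 among arrays of number 1 and 1.40 among arrays of number 2. Macrophage markers moved with the array number too. The summed signal of the 15 measured macrophage genes was 606, 339 and 481 on the first arrays of tumors 1, 2 and 3 and 2725, 1367 and 1706 on the second, against 205 and 918 in parental cells. Most of the parental difference was that of 1 gene, Csf1r, at 11.5 and 555, while Adgre1 had 96.9 and 237 and Lyz2 18.5 and 16.6 there. Of 7 such genes tested, Lyz2 (2.77 ± 0.15, adjusted p = 0.00105) and Cd14 (2.81 ± 0.34, 0.0266) rose, with the list's median at 0.72, and with the block 5 did. Cd14 lost its call when either parental array was dropped (up to 0.156). The next largest changes of the list were those of Itgam (2.24 ± 0.40, 0.0854) and Adgre1 (0.72 ± 0.54, 0.566). Marco, Cd163 and C1qa, which mark tissue macrophages, had signals of at most 3.09 on every array, too low to show that the transcripts were absent. Adgre1 had 295 and 936 (tumor 1), 81 and 268 (tumor 2) and 146 and 341 (tumor 3), against 96.9 and 237 in parental cells. By limma with the block Adgre1 (adjusted p = 0.0199) and Cd68 (0.0422) were among those higher, and Csf1r (0.478) and Fcgr1 (0.228) were not called. The part of macrophage RNA in the Spi1 signal was not tested, and in bulk RNA more cells that hold a transcript and more transcript per cell cannot be told apart.

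Gata2 (chromosome 6), the GATA factor of progenitors and mast cells, was read by 2 probe sets. On the first, the signal was 1678 and 1471 (tumor 1), 1945 and 1983 (tumor 2) and 2040 and 2024 (tumor 3), against 742 and 1169 in parental cells. On the second, it was 1494 and 1223 (tumor 1), 1471 and 1344 (tumor 2) and 1423 and 1554 (tumor 3), against 693 and 887 in parental cells. On both, every tumor array lay above both parental arrays, and on the first the duplicates of each tumor lay closer together than the parental duplicates. The tumors averaged 1857 ± 247 and the parental cells 956 ± 302 on the first probe set, a ratio of 1.94, and 1418 ± 65.5 and 790 ± 137 on the second, a ratio of 1.79. The changes were 0.97 ± 0.24 (limma adjusted p = 0.141, unadjusted p = 0.00508) and 0.84 ± 0.17 (0.115, 0.00205), so neither passed over all probe sets. In the fit of all 8 arrays, where the spread is that of duplicates and not of mice, both passed (0.0407 and 0.0411), among 489 probe sets called (3.28%), and with the array number as a block they passed at 0.0153 and 0.0154. Spi1 was the third member probe set called with the block, among 1952 of all probe sets (13.1%), of which 7.40% of those tested were higher in tumors.

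By tumor the Gata2 changes were 0.74, 1.06 and 1.11 on the first probe set (SE 0.24) and 0.77, 0.83 and 0.91 on the second (SE 0.20). The lowest adjusted p without the block was 0.0639, in tumor 3. With it, the first probe set passed in tumors 2 and 3 (0.0365 and 0.024) and not in tumor 1 (0.0589), and the second passed in all tumors (0.0365, 0.0477 and 0.0279). The tumors did not differ among themselves by more than their duplicates (F test, adjusted p = 0.778 and 0.975). The parental arrays differed by 0.64 on the first probe set. The change there was 1.32 among arrays of number 1 and 0.62 among arrays of number 2, and 0.65 without parental replicate 1 against 1.29 without parental replicate 2. On the second probe set those values were 1.06, 0.61, 0.66 and 1.01.

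Genes of mast cells and basophils, where GATA2 is also at work, differed widely between arrays. The sum over the 10 measured genes of that list, Gata2 among them, was 7327 and 10313 (tumor 1), 2098 and 2690 (tumor 2) and 2157 and 2539 (tumor 3), against 965 and 4082 in parental cells. Gata2 itself made up most of it in tumors 2 and 3 (1945 and 1983, 2040 and 2024) and on the first parental array (742). The sum there says little about the other genes of the list. Of 5 genes tested none passed limma's test, 1, Gata2 itself, had an unadjusted p under 0.05, and the median was 0.07. The largest changes were those of Fcer1a (1.82 ± 2.24, adjusted p = 0.744), Cma1 (-1.77 ± 0.88, 0.391), Gata2 and Mcpt8 (-0.09 ± 0.77, 0.972). With the block Gata2 was called higher and Cma1 lower (0.0428). Cma1 had 32.8 to 420 on the tumor arrays, against 180 and 2047 in parental cells, and 3 of 6 tumor arrays lay below both. Its fall thus leaned on the second parental array. Fcer1a, a chain of the IgE receptor, had 5067 and 6654 in tumor 1 and 16.3 to 50.9 in tumors 2 and 3, against 2.1 and 189 in parental cells. In tumor 1 it rose by 6.58 (adjusted p = 0.0117, but 0.0632 without the second array of tumor 1). Whether such cells take part in the Gata2 signal was not tested.

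Gata1 (X chromosome), the erythroid and megakaryocyte factor, was the member that differed between tumors. Its signal was 38.6 and 87.2 (tumor 1), 357 and 222 (tumor 2) and 284 and 232 (tumor 3), against 306 and 305 in parental cells. Both arrays of tumor 1 were below every other array, and tumors 2 and 3 lay around the parental signal. Over all tumors the mean was 204 ± 123, against 306 ± 0.783 in parental cells, and the change of -0.82 ± 0.57 did not pass (limma adjusted p = 0.541); without tumor 1 it was -0.17. In tumor 1 it fell by 2.10 (SE 0.33, adjusted p = 0.02, and 0.0112 with the block). It was the 1 of 14 member probe sets called in that tumor, where 435 probe sets were called (2.92%), 178 of them lower (1.20%). The changes in tumors 2 and 3 were -0.11 (0.955) and -0.24 (0.81). In those tumors 0 of the 14 member probe sets were called, where 1.28% and 2.14% of all probe sets were. With the block 3 were called in each tumor, where 13.8%, 5.46% and 9.13% of all probe sets were, those of Spi1 and Gata2 and, in tumor 1, Gata1 in place of the first Gata2 probe set.

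The difference among the tumors was tested directly. Gata1 passed the F test over the 3 tumors at an adjusted p of 0.0478, and of 0.0264 with the block, as the 1 member among 188 probe sets called (1.26%, and 5.28% with the block). Tumor 1 lay below tumor 2 by a difference of -1.99 (adjusted p = 0.0502) and below tumor 3 by -1.86 (0.0544), and tumors 2 and 3 differed by 0.13 (adjusted p = 1). In ascending order of signal the sources were tumor 1, tumor 3, tumor 2 and parental cells, and the last 3 were not told apart by these tests. The call of the F test was narrow: without 1 array it ranged from 0.029 to 0.183 and was kept only without the second array of tumor 1. The fall in tumor 1 kept its call under pseudocounts of 1 and 64, no filter and quantile normalization (adjusted p up to 0.0472). It lost it without the first array of tumor 1 (-1.64, 0.05), either array of tumor 3 (0.0515) or either parental array (up to 0.107).

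**Figure D2:**
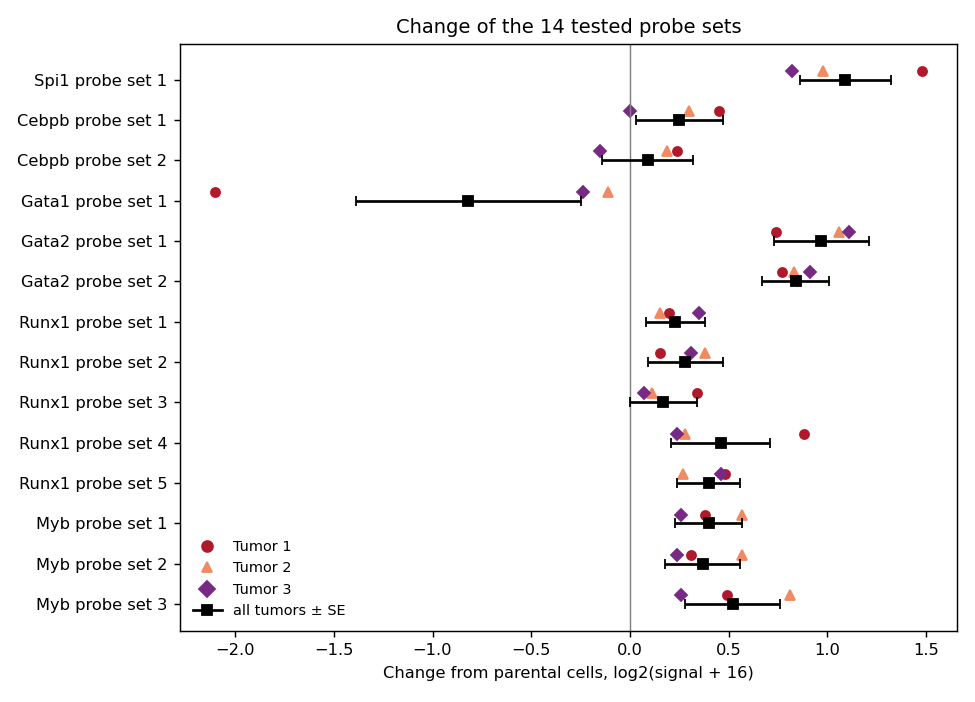
Change from parental cells on the scale of log2(signal + 16) for the 14 tested member probe sets, with tumors 1, 2 and 3 as coloured points and the mean over tumors as a square with its SE. Spi1 lies between 0.82 and 1.48 and the probe sets of Gata2 between 0.74 and 1.11 in the tumors. Gata1 lies at -2.10 in tumor 1, against -0.11 and -0.24 in tumors 2 and 3.

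Cebpb (chromosome 2), the C/EBP factor of emergency granulopoiesis and of macrophages, was present in all sources. On the first probe set it had 937 and 851 (tumor 1), 748 and 861 (tumor 2) and 653 and 649 (tumor 3), against 550 and 767 in parental cells. Tumor 3 lay between the parental arrays and 3 of 6 tumor arrays lay above both. The change was 0.25 ± 0.22 (limma adjusted p = 0.627), and that of the second probe set was 0.09 ± 0.23 (0.879), with 155 to 253 in tumors and 155 and 234 in parental cells. The second value turned to -0.01 with median centring of the arrays. The parental duplicates differed by 0.47 and 0.55 on the 2 probe sets, more than either change. Across all probe sets tested, median centring moved the median change by -0.11, and no other setting that kept all arrays moved it by more than 0.03.

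Runx1 (chromosome 16), the core-binding factor of blood progenitors, had 5 probe sets with changes of 0.17 to 0.46. The brightest had 299 and 268 (tumor 1), 288 and 261 (tumor 2) and 299 and 333 (tumor 3), against 239 and 251 in parental cells, so that all tumor arrays lay above both parental arrays by a small margin. Its change was 0.23 ± 0.15 (limma adjusted p = 0.514). The largest, 0.46 ± 0.25 (0.422), was that of the fourth probe set, which stood at 238 and 134 in tumor 1 and at 102 to 124 in tumors 2 and 3, against 76.9 and 106 in parental cells. The dimmest, at 8.1 to 49.2 in tumors and 14.6 and 19.4 in parental cells, was the 1 of the 5 with an unadjusted p under 0.05 (0.0453, adjusted 0.308).

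Myb (chromosome 10), which sustains immature blood cells, was read by 3 probe sets that ran alike. The brightest had 1608 and 1850 (tumor 1), 1865 and 2081 (tumor 2) and 1347 and 1877 (tumor 3), against 1406 and 1248 in parental cells. On each of the 3, 5 of 6 tumor arrays lay above both parental arrays and the first array of tumor 3 lay between them. The changes were 0.40 ± 0.17, 0.37 ± 0.19 and 0.52 ± 0.24 (limma adjusted p = 0.324, 0.399 and 0.366), and tumor 2 had the highest of the 3 tumors on each, at 0.57, 0.57 and 0.81. Counted over all 14 member probe sets, the tumor arrays all lay above the parental ones on 4, those of Spi1, Gata2 and the brightest of Runx1, where 9.35% of all probe sets did, and they all lay below on 0, where 8.27% did.

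Cebpa, Gfi1 and Irf8 did not pass the filter, and a change could not be measured. Cebpa (chromosome 7), the factor that commits progenitors to the granulocyte line, had 1.09 to 2.35 on the tumor arrays and 0.554 and 5.91 on the parental arrays, all below the 40th percentile. Gfi1 (chromosome 5), a repressor that favours neutrophils, had 0.936 and 27.5 (tumor 1), 0.186 and 0.979 (tumor 2) and 0.673 and 3.98 (tumor 3), against 2.58 and 0.397 in parental cells. Its second array of tumor 1 was the 1 array above the 40th percentile. Irf8 (chromosome 8), the monocyte and dendritic cell factor, had 0.655 to 24.3 on the first probe set in tumors, with 1 array above the percentile, against 9.12 and 4.25 in parental cells, and 1.34 to 7 on the second, against 1.75 and 1.02. Signals so low show only that these probes did not read above the bottom of the range, not that the transcripts were absent.

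The list of names was drawn up to set lineage regulators beside the granule genes of the tumors. Mpo, the peroxidase of primary granules, had 1802 and 1578 (tumor 1), 2727 and 2669 (tumor 2) and 1560 and 3401 (tumor 3), against 12.1 and 16.4 in parental cells. Epx, the eosinophil peroxidase, had 3260 and 4607 (tumor 1), 2934 and 2614 (tumor 2) and 2965 and 3950 (tumor 3), against 9.21 and 9.34 in parental cells. Every tumor exceeded the parental cells in both genes many times over, and the tumors did not differ by more than their duplicates in either (F test, adjusted p = 0.692 and 0.685). Mpo rose by 6.19 ± 0.23 (limma adjusted p = 0.000279) and Epx by 7.05 ± 0.19 (7.43e-05). Prg2, the major basic protein of eosinophils, rose by 5.78 ± 0.63 (0.0181), with 346 and 1460 (tumor 1), 738 and 1856 (tumor 2) and 3750 and 3977 (tumor 3), against 12.2 and 10.4 in parental cells. Mpo and Epx kept their call without any 1 tumor or parental array, and Prg2 lost it when either parental array was dropped (up to 0.155).

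Of the serine proteases of primary granules Elane, Prtn3 and Ctsg did not pass over all tumors without the block, and Elane and Prtn3 passed with it. Elane, neutrophil elastase, had 21.6 to 57.2 on the tumor arrays and 8.74 and 13.6 on the parental arrays, a change of 0.93 ± 0.20 (limma adjusted p = 0.121, and 0.0286 with the block). Prtn3, proteinase 3, had 1091 to 2512 in tumors and 725 and 162 in parental cells, a change of 2.22 ± 0.58 (0.159, and 0.0154 with the block), and both parental arrays were above their 40th percentile. Ctsg, cathepsin G, had 356 and 224 (tumor 1), 49.8 and 122 (tumor 2) and 28.2 and 26.7 (tumor 3), against 28.5 and 72.4 in parental cells. Ctsg had a change of 2.25 in tumor 1 (adjusted p = 0.0383) and of 0.60 and -0.53 in tumors 2 and 3, and its F test did not pass (0.0531) except with the block (0.0233). Its call in tumor 1 was lost without either array of tumor 1, of tumor 3 or of the parental cells (up to 0.171). Primary granule genes did not share 1 order of the tumors. Ms4a3, a membrane protein of myeloid progenitors, had 101 and 161 (tumor 1), 1105 and 1313 (tumor 2) and 628 and 1853 (tumor 3), against 18.7 and 16.9 in parental cells. Serpinb1a, an inhibitor of granule proteases, had 470 and 627 (tumor 1), 51.5 and 161 (tumor 2) and 49 and 49.6 (tumor 3), against 127 and 232 in parental cells. Serpinb1a was named with its values known. In tumor 1, where Gata1 was low, Ms4a3 was the lowest and Serpinb1a the highest of the 3 tumors, and both passed the F test (0.029 and 0.0366), calls that were kept in 2 of the 8 fits without 1 array for each gene (up to 0.134 and 0.18). Set side by side in tumors 1, 2 and 3, Spi1 had changes of 1.48, 0.98 and 0.82, Gata1 of -2.10, -0.11 and -0.24, Mpo of 5.82, 6.49 and 6.27, and Epx of 7.27, 6.78 and 7.09. The eosinophil granule genes did not share 1 order of the tumors. In tumor 1, where Gata1 was lowest, Epx had its largest change, as did Alox15 (3.14, 0.43 and 1.31 in tumors 1, 2 and 3). Prg2 (4.74, 5.44 and 7.15) and Prg3 had their smallest change there, and Siglecf of the same list lay between. None of these passed the F test without the block, and Prg3 (adjusted p = 0.0236) and Alox15 (0.0227) passed with it. A link of these genes with Gata1 was not tested, and these comparisons share the parental arrays.

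**Figure D3:**
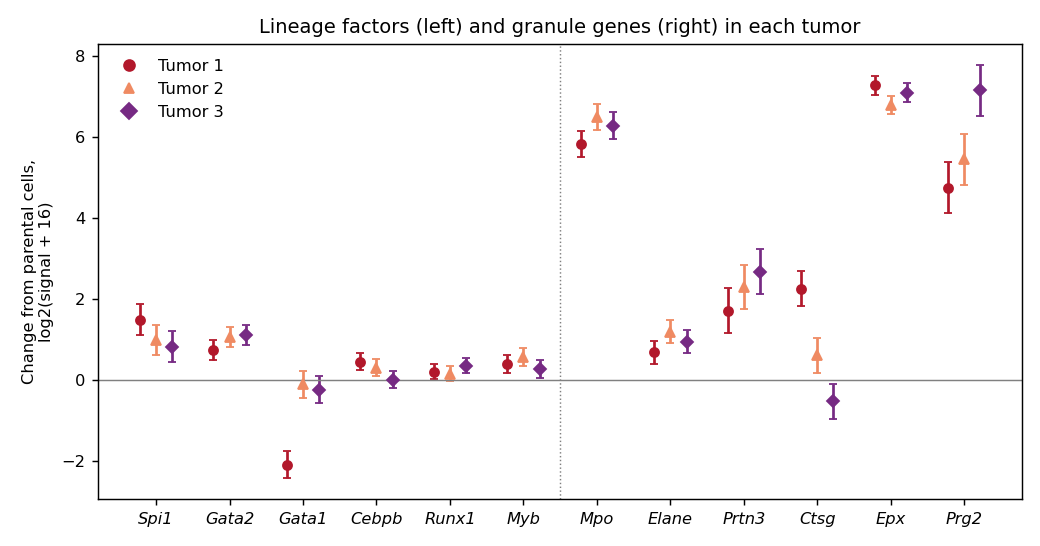
Change from parental cells on the scale of log2(signal + 16) in tumors 1, 2 and 3 for 6 lineage factors (left of the dotted line) and 6 granule genes (right of it), with bars of 1 SE from the spread of duplicate arrays. Mpo lies at 5.82 to 6.49 and Epx at 6.78 to 7.27, while Spi1, the factor with the largest change over all tumors, lies at 0.82 to 1.48.

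The granule lists gave few calls without the block and more with it. With the array number as a block all 5 tested eosinophil granule genes were higher, 4 of 9 primary granule genes were higher and 1 lower, and 3 of 8 late granule genes were higher, where 13.1% of all probe sets were called in either direction. The primary granule genes so called were Mpo, Elane, Prtn3 and Ms4a3 (0.00038), with Cst7 the lower one (0.0291). All 5 tested eosinophil genes were above the 40th percentile on 0 parental arrays, so they could be tested only because tumor arrays were high. Their count and median do not describe the whole list, of which Ear3, Il5ra and Ccr3 had at most 9.25 on any tumor array. Elane, Ltf, Lcn2, S100a8, S100a9 and Cd177 were tested through tumor arrays alone too. Without the block, of 5 eosinophil granule genes tested 2 rose, Epx and Prg2, with a median of 2.05 and changes for Prg3 and Alox15 of 2.05 ± 0.73 (adjusted p = 0.258) and 1.63 ± 0.71 (0.335). Of 9 primary granule genes 1 rose, Mpo, with a median of 0.78, and the next largest changes were those of Ms4a3 (4.10 ± 0.88, 0.12), Prtn3 and Cst7 (-0.99 ± 0.55, 0.431). Of 8 late granule genes 1 rose, Ngp (4.50 ± 0.64, 0.0414), with a median of 1.75, and Ngp lost its call without tumor 1, tumor 3 or either parental array (up to 0.187). Cd177, S100a9 and Lcn2 followed with 2.49 ± 0.48 (0.101), 1.96 ± 0.59 (0.203) and 1.92 ± 0.60 (0.213). The summed late granule signal, like that of macrophage genes, was higher on second arrays, at 7965, 1767 and 3237 in tumors 1, 2 and 3, against 1056, 549 and 1618 on the first, and against 266 on the second and 404 on the first parental array. Of 12 tested receptors and surface proteins that these factors are known to drive, 1 rose, Cd14, with a median of 0.25, and Itgam also passed with the block (0.00902). Itgam, Csf1r (-0.65 ± 1.14, 0.828) and Fcgr1 (0.57 ± 0.21, 0.264) came next.

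Of the factors known to work with GATA1, Klf1 fell and Lmo2 rose in tumor 1, and Ldb1 was lower in every tumor. Among 49 other regulators of these lineages 44 had a probe set and 34 were tested. By limma none passed over all tumors, 16 lay above 0 and the median was -0.05. An unadjusted p under 0.05 was found for 7 of the 34 (2 of them higher), against 15.5% of all probe sets. With the array number as a block 4 were higher and 6 lower, 10 of 34 where 13.1% of all probe sets were called. In tumor 1, 1 of the 34 was called higher and 2 lower, where 2.92% of all probe sets were called. Klf1, the erythroid Krüppel-like factor, fell by 2.01 in tumor 1 (adjusted p = 0.0213), and Ldb1, the bridge protein of GATA1 complexes, fell by 1.36 (0.0292). Ldb1 also had changes of -0.64 and -0.77 in tumors 2 and 3, with all 6 tumor arrays below both parental arrays. With the block it passed in tumor 3 too (0.0366), and its F test did not pass (adjusted p = 0.377). Lmo2, the LIM protein of the same complexes, rose by 1.82 in tumor 1 (0.00963). In tumors 2 and 3 none of the 34 passed without the block, where 1.28% and 2.14% of all probe sets did. Over all tumors the largest changes were those of Nfil3 (1.20 ± 0.47, 0.296), Ldb1 (-0.92 ± 0.25, 0.165), Tal1, the partner of LMO2 and LDB1 (-0.88 ± 0.28, 0.217), and Lmo2 (0.81 ± 0.47, 0.454).

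Klf1 and Lmo2 were the 2 of the 34 that differed among the tumors by the F test (adjusted p = 0.0347 and 0.0359), which called 1.26% of all probe sets. Klf1 had 198 and 129 (tumor 1), 1019 and 647 (tumor 2) and 621 and 607 (tumor 3), against 895 and 537 in parental cells. Lmo2 had 284 and 369 (tumor 1), 98.8 and 110 (tumor 2) and 85.6 and 120 (tumor 3), against 95.2 and 67.4 in parental cells. Tumor 1 stood apart from all other arrays in both genes, below for Klf1 and above for Lmo2. The F test of Klf1 kept its call in 3 and that of Lmo2 in 0 of the 8 fits without 1 array (adjusted p up to 0.161 and 0.178), and in tumor 1 alone Klf1 kept it in 4, Lmo2 in 6 and Ldb1 in 3.

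The following genes were chosen after their values were seen. Zfpm1, which encodes the GATA1 cofactor FOG1, had 260 and 154 (tumor 1), 739 and 508 (tumor 2) and 904 and 533 (tumor 3), against 892 and 554 in parental cells, with a change of -1.73 in tumor 1 that did not pass (0.0557) and passed with the block (0.000915). Epor, the erythropoietin receptor and a GATA1 target, had 58.1 and 67 (tumor 1), 181 and 152 (tumor 2) and 189 and 183 (tumor 3), against 95 and 109 in parental cells, and differed among the tumors (F test, adjusted p = 0.0228, kept in 2 of 8 fits without 1 array). Fli1, an ETS factor of megakaryocytes, had 964 to 1296 in tumors and 679 and 699 in parental cells, a change of 0.69 ± 0.15 (0.121), and its tumors did not differ (0.975). Gfi1b, the erythroid relative of Gfi1, had changes of -0.85, -0.57 and -0.36 in tumors 1, 2 and 3, of which that in tumor 1 passed with the block (0.0168) and none did without it.

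**Figure D4:**
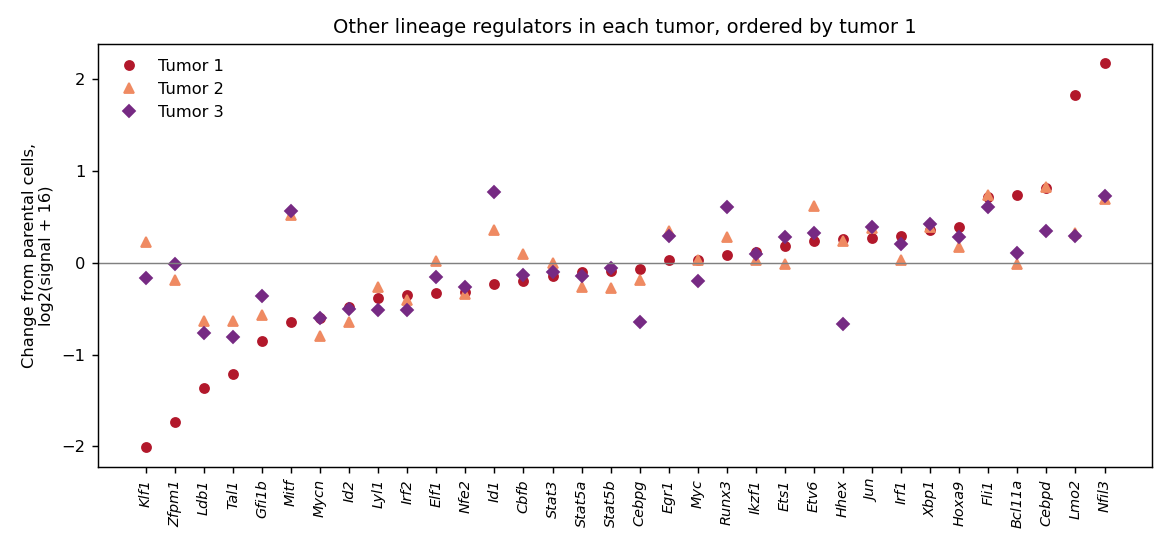
Change from parental cells on the scale of log2(signal + 16) for the 34 tested other regulators, ordered by their change in tumor 1. Klf1 (-2.01) and Lmo2 (1.82) in tumor 1 lie away from their values in tumors 2 and 3, between -0.17 and 0.32.

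Of the products of the erythroid line, the 1 probe set used for each of Hba-a1 and Alas2 read near the floor in every source. Genes of the lists were read only on probe sets with 1 symbol. Any probe set that joins Hba-a1 with another symbol was therefore not looked at, and the values do not show that globin was absent. Hba-a1, a globin, had 3.37 to 14.1 in tumors and 6.3 and 2.33 in parental cells, and Alas2, the first enzyme of erythroid heme synthesis, had at most 2.25. Of 7 erythroid genes tested none passed limma's test over all tumors, 4 had an unadjusted p under 0.05, and the median was 0.19. With the block Trim10 (0.00431) and Ermap (0.0499) were higher and Hemgn (0.00178) lower. Hemgn, a nuclear protein of blood progenitors, had 125 and 95 (tumor 1), 95.9 and 110 (tumor 2) and 219 and 191 (tumor 3), against 712 and 397 in parental cells, a change of -1.89 ± 0.35 (adjusted p = 0.0926), and it fell in tumors 1 and 2 when each was tested by itself (0.00963 and 0.01, with up to 0.0568 and 0.0798 when an array of that tumor was dropped). Trim10 (1.24 ± 0.23, 0.0926), Ermap (0.67 ± 0.23, 0.239) and Slc4a1 (0.57 ± 0.17, 0.201) came next. Of 3 megakaryocyte genes tested none passed, 1 had an unadjusted p under 0.05, and the median was 0.36. With the block Pf4 was higher (0.0122) and Gp9 lower (0.0103). Pf4, platelet factor 4, had a change of 1.20 ± 0.59 (0.384) and differed among the tumors (F test, 0.0191), high in tumor 3 at 119 and 149, a call lost without either array of that tumor (up to 0.181). Gp9, a platelet glycoprotein, had a change of -0.97 ± 0.31 (0.217) and fell in tumor 1 when tested by itself (-1.59, 0.0199), and Itga2b had 0.36 ± 0.22 (0.469). The call of Gp9 in tumor 1 was kept in 3 of the 8 fits without 1 array.

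Of the genes that bear on the pro-B label of the line, some read above the bottom of the range in parental cells and others did not. Cd79a had 128 to 277 in tumors and 87.7 and 95.2 in parental cells, and Cd79b, the other signalling chain of the B cell receptor, had 209 to 298 in tumors and 109 and 77.6 in parental cells. The B lineage factor Tcf3 had 70.6 to 113 in tumors and 107 and 119 in parental cells. Foxo1 had 10.1 to 28.6 in tumors and 20.5 and 23.3 in parental cells, and for each of these genes both parental arrays were above their 40th percentile. Pax5 had 5.93 to 18.9 in tumors and 2.91 and 3.43 in parental cells, Ebf1 at most 6.84 and Rag1 at most 9.92 on any array, and none of these was tested. Of 10 B lineage regulators 5 were tested, none passed limma's test and 0 had an unadjusted p under 0.05, with a median of -0.07, and Sox4 (0.47 ± 0.30, adjusted p = 0.499), Tcf3 (-0.40 ± 0.18, 0.361), Irf5 (0.18 ± 0.25, 0.775) and Bcl6 (-0.14 ± 0.25, 0.838) had the largest changes. Of 5 pro-B genes tested 1 rose, Cd79b (1.31 ± 0.19, 0.0414), which was not called in any fit without 1 sample (0.103 to 0.156), with a median of 0.97. Cd24a (1.03 ± 0.51, 0.391), Cd79a (0.97 ± 0.25, 0.156) and Igll1 (0.45 ± 0.23, 0.402) followed. With the block Cd79a (0.0116) and Cd24a (0.00417) passed as well as Cd79b. Of 8 T cell genes with a probe set 2 were tested, so their median does not describe the list. Cd3e, Cd2, Cd4, Cd8a, Thy1 and Cd5 were not tested and had at most 27.6 on any tumor array. Cd3d was above the 40th percentile on 0 parental arrays and was tested through its tumor arrays alone. Cd3g rose (4.46 ± 0.25, 0.00112), but not without parental replicate 2 (0.0561), and Cd3d had a change of 4.21 ± 0.71 (0.0729, and 5.84e-05 with the block), which gave the list a median of 4.34.

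Other genes on the array followed the pattern of 3 members across the 8 arrays. Likeness was measured by Pearson correlation on the log2(signal + 16) scale among the 967 genes whose source means spanned at least 1, and it carries no p because arrays share sources and the genes were picked for it. For Spi1, whose source means spanned 1.48, the most like were Slc8b1 (0.982) and Olr1 (0.979). For Gata1, which spanned 2.10, they were Nktr (0.972) and Hdac6 (0.958). For Gata2, which spanned 1.11, they were Hspa2 (0.946) and Adcy6 (0.946). Cebpb, Runx1 and Myb spanned 0.45, 0.35 and 0.57 and were not searched.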

How the data were processed

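RNA of 3 splenic tumors and of the parental line was measured on 8 arrays, 2 for each of the 4 sources. The authors deposited 1 linear signal intensity for every probe set, made with MAS5 per the submitters' processing notes; version and settings were not given in what was used here. Every array had a trimmed mean of 150.06 (2% trimmed from each end), the mark of scaling to a common target, which makes arrays comparable as long as most transcripts are alike. The number of arrays limits the precision.

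Gene symbols came from the platform annotation and were updated by gene ID through a RefSeq table of GRCm38.p6, which matched 20351 of 20380 probe sets with 1 symbol. A further 691 had several symbols and 1555 had none, and 64 controls were dropped. That table gave chromosomes and gene order. Promoters came from RefSeq on the same build.

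The analysis scale was log2(signal + 16), on which dim genes change less than their ratios, and the arrays were not normalized again. All tests used limma 3.58.1 in R 4.3.3, two-sided, with Benjamini-Hochberg adjustment. The test of all tumors, and the mean of the tumors in the fit of 8 arrays, were also run on simulated data. Those data held no differences between mice or between array numbers. The block fits, the single tumors and the F test were not simulated. All tumors were compared as 3 tumor means against 2 parental arrays. Single tumors, and the F test over tumors, used 8 arrays and 1 mean per source. The array numbers of the labels pair the arrays, because array deviations within a source, compared between sources by number, had correlations of 0.435 to 0.594 in all 6 pairs, and the number was used as a block in further fits. Genes named by a fixed rule were all members, 6 granule genes, and of each list some by their change on the probe set of highest mean. Those were the genes that passed the test of all tumors and the 4 with the largest change. Other genes of the lists, such as Klf1, Serpinb1a, Siglecf, Cd68, Marco, Hba-a1, Alas2, Foxo1, Pax5 and Rag1, fell outside that rule and were named with their values known. The members and lists were chosen with earlier results of these data known. Further settings were other pseudocounts (1 and 64), other filters (none, or the 60th percentile), median centring, quantile normalization, 1 probe set per gene, arrays of 1 number alone, and samples left out. Leaving out single arrays of the 8, and the counts of lists under the block, were added after seeing the data.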

Additional observations from a re-analysis of the deposited data

Results flagged for a closer look

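Gata1 met the rule for a difference between groups: its change from parental cells was not the same in the 3 tumors. The F test over the tumors gave an adjusted p of 0.0478, with a change of -2.10 in tumor 1, -0.11 in tumor 2 and -0.24 in tumor 3, and both arrays of tumor 1 (38.6 and 87.2) lay below all other arrays. Under pseudocounts of 1 and 64, no filter and quantile normalization the adjusted p was 0.12, 0.0505, 0.111 and 0.0528, so the call rests on the processing, while with the array number as a block it was 0.0264.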

How the results depend on the processing

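The number of probe sets called depended on the setting far more than the members' changes did. For all tumors the count of 104 was 45 with a pseudocount of 64, 22 with no filter, 66 with 1 probe set per gene, 489 in the fit of all 8 arrays, 1952 with the replicate block, 5 on arrays of number 1, 12 on arrays of number 2 and 9 to 94 with a sample left out; member calls were 0, but 2 in the fit of 8 arrays and 3 with the block. For tumor 1 the 435 calls became 281 with no filter, 2049 with the block and 105 to 321 without 1 array, and the 1 member call became 3 with the block and 0 to 1 without 1 array. The 190 calls of tumor 2 became 813 with the block and 75 to 202 without 1 array, and its 0 member calls became 3 with the block. Tumor 3 had 318 calls, 1360 with the block and 122 to 318 without 1 array, and its 0 member calls became 2 with a pseudocount of 64, 3 with the block and 0 to 1 without 1 array. The F test's 188 calls became 88 with a pseudocount of 1, 87 with no filter, 787 with the block and 53 to 136 without 1 array, and its 1 member call became 0 with pseudocounts of 1 and 64, no filter and quantile normalization, and 0 to 1 without 1 array. Of single member values 592 were the same: tested ones kept direction and side of the threshold, and untested ones shifted by less than the SD of the tumors. Another 3, of untested probe sets, moved by more: Cebpa with pseudocounts of 1 and 64, and Irf8 probe set 2 with 1. Of tested values 16 gained and 16 lost a call, and 4 reversed. Those were Cebpb probe set 2, at -0.01 with median centring, -0.23 on arrays of number 2 and -0.18 to 0.37 with a sample left out, and Gata1 in tumor 2, at -0.44 to 0.21 without 1 array. The cause was not tested, beyond fewer samples in fits on part of the arrays, in which a lone array is assumed to vary like the others. The block changed no other member call than those given. Dim probe sets (Cebpa, Gfi1, Irf8) limit what these arrays can show.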

Other observations

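The genes beside Gata1 on the X chromosome were looked at after its values were seen. Hdac6, a cytoplasmic deacetylase and the next gene in the RefSeq order, had 3.57 and 19.9 (tumor 1), 110 and 80.3 (tumor 2) and 97.9 and 56.6 (tumor 3), against 69.8 and 57.1 in parental cells. Its change in tumor 1, -1.58, did not pass limma's test (adjusted p = 0.0557) and passed with the array number as a block (0.0271). Eras, an embryonic Ras gene and the next one on that side, had 1609 and 1798 in tumor 1 and 2728 and 3187 in tumor 2, but 19.6 and 32.5 in tumor 3, against 2.81 and 1.37 in parental cells. Eras rose by 6.57 in tumor 1 (8.72e-06), by 7.36 in tumor 2 (5.41e-06) and by 1.20 in tumor 3 (0.033), and it differed among the tumors (F test, adjusted p = 8.09e-05). Was, the neighbour on the other side, had 400 and 370 (tumor 1), 380 and 323 (tumor 2) and 438 and 388 (tumor 3), against 417 and 314 in parental cells, with a change of 0.09 in tumor 1 (0.872). Of 12 neighbours, 6 on each side, 1 was called higher in tumor 1 and 0 lower. The 242 measured genes of the X chromosome had median changes of -0.030, 0.015 and 0.006 in tumors 1, 2 and 3.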
